A study of Mus musculus with 9 samples.

Results

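Otx2, Fgf5, Pou3f1, Zic2, Pim2 and Car14 are genes known to rise when mouse pluripotent cells leave the naive state of embryonic stem cells for the primed state of the postimplantation epiblast. They were taken as a named set, chosen with earlier results of these data known. Their probes were found through the accession that the array gives each probe. All 6 were found, each with 1 probe, among 55681 probes that are not controls, and all 6 passed a filter that kept probes well above background on at least 3 of 9 arrays. Fgf5 passed through the 3 DMSO arrays alone, so its fall is given as a bound and kept out of the counts. The set was read here on 9 arrays of J1 cells, a mouse embryonic stem cell line of the 129S4/SvJae strain adapted to gelatin. No group of the study was a primed culture, so the name of the set rests on what is known of the genes.

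All groups were kept in medium with 1000 U/mL of LIF, the cytokine that holds mouse stem cells in self-renewal through STAT3, and all were collected at 24 h. The 3 DMSO samples received the solvent. The 3 CHIR99021 samples received 3 µM of an inhibitor of the kinase GSK3, which leaves beta-catenin free to act in Wnt signalling. The 3 AICAR samples received 1 mM of a nucleoside that cells turn into an AMP mimic, an activator of the kinase AMPK. The study asked which genes respond to each compound. Every sample came from J1 alone, and the labels do not say whether replicates were separate cultures, so p-values measure a spread that may be technical. The DMSO, CHIR99021 and AICAR arrays were on 3 different slides, so slide and treatment cannot be told apart.

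Pluripotency passes through a series of states. Naive cells hold a network of factors such as Klf4, Tfcp2l1 and Esrrb, and FGF signalling through ERK drives them toward a formative and then a primed state. Otx2 is a homeodomain factor that acts early in that process, and Pou3f1 and Zic2 are DNA-binding factors that follow it. Fgf5 is a secreted FGF ligand used as a marker of the epiblast. Pim2 is a serine/threonine kinase and Car14 a membrane-bound carbonic anhydrase.

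The stretch of 250 bases before the transcript start is shown for the members with an entry in the RefSeq promoter table (build GRCm38.p6), since the results turn on members that fell together. There were 4 such members, Otx2, Fgf5, Pim2 and Car14, and Pou3f1 and Zic2 are named only. Otx2 had 4 windows, and the third is printed because it alone held a searched motif. The shares of windows given below are per single window and make no allowance for the 4 searched here. It lies at chr14:48665110-48665359 on the minus strand. The Fgf5 window is chr5:98253934-98254183 on the plus strand, that of Pim2 chrX:7878056-7878305 on the plus strand and that of Car14 chr3:95904686-95904935 on the minus strand. Sequences run 5′ to 3′ on the strand of the gene, and capitals mark a motif found on either strand.
Otx2: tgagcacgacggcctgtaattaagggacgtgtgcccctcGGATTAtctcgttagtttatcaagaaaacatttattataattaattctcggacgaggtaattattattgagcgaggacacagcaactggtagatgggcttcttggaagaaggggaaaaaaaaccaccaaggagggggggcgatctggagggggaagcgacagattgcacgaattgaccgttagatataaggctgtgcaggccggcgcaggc
Fgf5: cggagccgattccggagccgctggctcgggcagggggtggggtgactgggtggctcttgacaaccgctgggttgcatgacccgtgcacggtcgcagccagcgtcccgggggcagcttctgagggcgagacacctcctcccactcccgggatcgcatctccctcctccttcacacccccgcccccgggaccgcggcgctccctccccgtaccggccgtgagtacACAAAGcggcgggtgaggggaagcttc
Pim2: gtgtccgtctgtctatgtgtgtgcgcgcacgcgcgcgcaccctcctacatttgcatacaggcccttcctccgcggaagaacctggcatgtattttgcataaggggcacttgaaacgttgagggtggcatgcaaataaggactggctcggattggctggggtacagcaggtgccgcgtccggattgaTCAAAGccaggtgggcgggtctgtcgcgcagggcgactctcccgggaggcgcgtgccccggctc
Car14: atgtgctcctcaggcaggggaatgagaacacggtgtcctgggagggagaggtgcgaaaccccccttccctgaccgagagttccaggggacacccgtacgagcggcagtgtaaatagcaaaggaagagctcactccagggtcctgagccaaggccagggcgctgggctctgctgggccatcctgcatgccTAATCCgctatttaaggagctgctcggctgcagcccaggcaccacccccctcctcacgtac

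The motifs searched on both strands were the TCF/LEF cores CTTTGA and CTTTGT, the OTX site TAATCC and the E-box CACGTG. No 2 of them share a position in these windows. Among all 32851 RefSeq windows of the same length, 13.8% held CTTTGA, 16.5% held CTTTGT, 27.6% held either, 6.25% held TAATCC and 6.02% held CACGTG. The Otx2 window held the OTX site as GGATTA, on the opposite strand, from 211 to 206 bases before the start. The Car14 window held TAATCC from 61 to 56 bases before the start. Fgf5 held a TCF/LEF core as ACAAAG from 27 to 22 bases before the start, and Pim2 one as TCAAAG from 64 to 59 bases before it, both on the opposite strand. These matches describe letters and name no bound factor. The Fgf5 window had 70.8% G and C and 24 CpG steps, and the Pim2 window 62.0% and 22. The Car14 window had 62.0% and 10. All 3 lay above the medians of 52.4% and 6 CpG steps over all windows. The printed Otx2 window had 48.4% and 14, and the other Otx2 windows had 42.0% to 53.6% and 6 to 9.

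Otx2, Pou3f1, Zic2, Pim2 and Car14 fell with both compounds. These are the 5 members well above background on all 9 arrays. With CHIR99021 their levels fell to between 2.78% (Otx2) and 50.5% (Zic2) of DMSO. With AICAR they fell to between 22.5% (Zic2) and 46.7% (Pim2) of DMSO. In limma's fit with Benjamini-Hochberg adjustment over 26864 features, 20.5% of features fell with CHIR99021 and 29.6% with AICAR at an adjusted p under 0.05. Falls of at least 2-fold were fewer, 3.95% and 5.34% of features. The median change over all features was 0.07 with CHIR99021 and 0.03 with AICAR on the log2 scale. Both comparisons use the same 3 DMSO arrays, so their values are given side by side and their likeness was not tested. In RNA from whole cultures, fewer cells with a transcript and less of it per cell cannot be told apart.

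**Figure D1:**
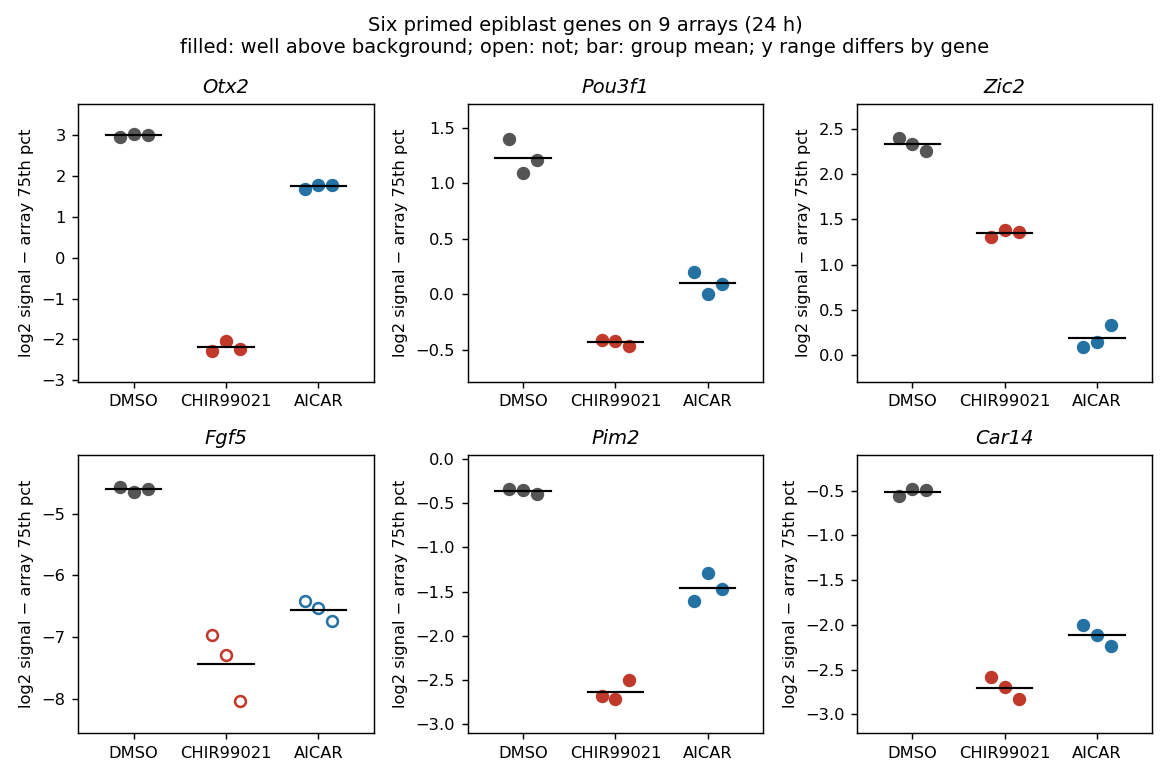
Level of each of the 6 genes on the 9 arrays, as log2 of the processed signal minus the array's 75th percentile, with 1 point per array, filled where well above background and open where not, and a bar at the mean of 3 arrays. The DMSO points lie above all treated points in every panel, and Zic2 is the panel in which AICAR lies below CHIR99021.

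Otx2 was the member that fell farthest with CHIR99021. Its processed signal (Agilent's background-subtracted brightness, before scaling) was 4729.6, 4933.9 and 4798.4 on the DMSO arrays. It was 117.6, 140.8 and 124.5 with CHIR99021, and 1954.4, 2009.2 and 1945.8 with AICAR. The 3 groups did not overlap, with DMSO highest, AICAR between and CHIR99021 far below, still well above background on each array. After scaling to each array's 75th percentile, Otx2 fell by 5.17 ± 0.07 on the log2 scale (SE of the fit, n = 3 per group) with CHIR99021, a 35.9-fold fall (limma, adjusted p = 1.32e-08). That was the lowest fitted change of all 26864 features in that comparison. With AICAR it fell by 1.25 ± 0.07, to 42.2% of DMSO (limma, adjusted p = 3.99e-06), rank 976 from the lowest. Between the treatments it was 15.1-fold lower with CHIR99021 (log2 difference -3.92 ± 0.07; limma, adjusted p = 2.06e-08). The other factors of its family, Otx1 and Crx, were not well above background on enough arrays to be tested.

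Pou3f1, also called Oct6, is a POU factor of the early epiblast and the neural plate. Its signal was 1608.2, 1295.3 and 1401.1 in DMSO. With CHIR99021 it was 430.01, 429.9 and 422.0, and with AICAR 710.7, 589.9 and 604.9. The CHIR99021 arrays lay close together and lowest, the AICAR arrays lay above them, and neither reached DMSO. Pou3f1 fell by 1.67 ± 0.08 on the log2 scale with CHIR99021, to 31.5% of DMSO (limma, adjusted p = 3.02e-06). With AICAR it fell by 1.13 ± 0.08, to 45.7% (limma, adjusted p = 1.41e-05). The treatments differed by -0.54 ± 0.08, lower with CHIR99021 (limma, adjusted p = 0.000799). In this fit it was the smallest difference between the treatments among the 5 members. Its order with Car14 depended on the processing. Across the alternative settings given below, Pou3f1 ranged from -0.73 to -0.48 and Car14 from -0.78 to -0.30.

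Zic2, a zinc-finger factor of the epiblast and the forebrain, followed the other order. Its signal was 3247.1, 3074.3 and 2912.1 in DMSO. It was 1417.9, 1509.6 and 1495.0 with CHIR99021, and 652.4, 649.9 and 711.4 with AICAR. All CHIR99021 arrays thus lay between DMSO and AICAR without overlap. Zic2 fell by 0.98 ± 0.07 on the log2 scale with CHIR99021, to 50.5% of DMSO (limma, adjusted p = 2.24e-05). With AICAR it fell by 2.15 ± 0.07, to 22.5% (limma, adjusted p = 3.63e-07). It was 2.25-fold higher with CHIR99021 than with AICAR (log2 difference 1.17 ± 0.07; limma, adjusted p = 4.73e-06).

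Fgf5 was dim even in DMSO. Its signal there was 25.8, 24.2 and 25.1, well above background on all 3 arrays. With CHIR99021 it was 4.59, 3.69 and 2.22 and with AICAR 7.26, 6.34 and 5.32, and none of these 6 arrays was well above background. The groups can therefore be set against DMSO only as bounds. For a bound, each treated array was given either the gene's own value or the lowest value of any spot well above background there, whichever was larger. The mean of these, on the scaled log2 values, was then set against the mean of DMSO. Fgf5 was at least 2.27-fold lower with CHIR99021 and at least 2.71-fold lower with AICAR. Having passed the filter through DMSO alone, it had to differ in this direction, so no test is given. Both treated groups were below background, so no order between them can be read.

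Pim2 encodes a kinase that promotes cell survival and protein synthesis. Its signal was 484.4, 479.3 and 462.9 in DMSO. It was 89.1, 87.6 and 102.3 with CHIR99021, and 202.6, 241.2 and 204.4 with AICAR. DMSO was highest, AICAR intermediate and CHIR99021 lowest, with no overlap. Pim2 fell by 2.28 ± 0.09 on the log2 scale with CHIR99021, to 20.6% of DMSO (limma, adjusted p = 9.12e-07). With AICAR it fell by 1.10 ± 0.09, to 46.7% (limma, adjusted p = 2.29e-05). It was lower with CHIR99021 than with AICAR by 2.27-fold (log2 difference -1.18 ± 0.09; limma, adjusted p = 1.30e-05).

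Car14 encodes an enzyme that interconverts carbon dioxide and bicarbonate at the cell surface. Its signal was 416.4, 435.1 and 431.0 in DMSO. With CHIR99021 it was 95.7, 89.1 and 82.2, and with AICAR 153.9, 135.9 and 120.9. These groups did not overlap either, and CHIR99021 was again the lowest. Car14 fell by 2.19 ± 0.08 on the log2 scale with CHIR99021, to 21.9% of DMSO (limma, adjusted p = 6.18e-07). With AICAR it fell by 1.60 ± 0.08, to 32.9% (limma, adjusted p = 1.67e-06). The treatments differed by -0.59 ± 0.08 (limma, adjusted p = 0.000326).

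**Figure D2:**
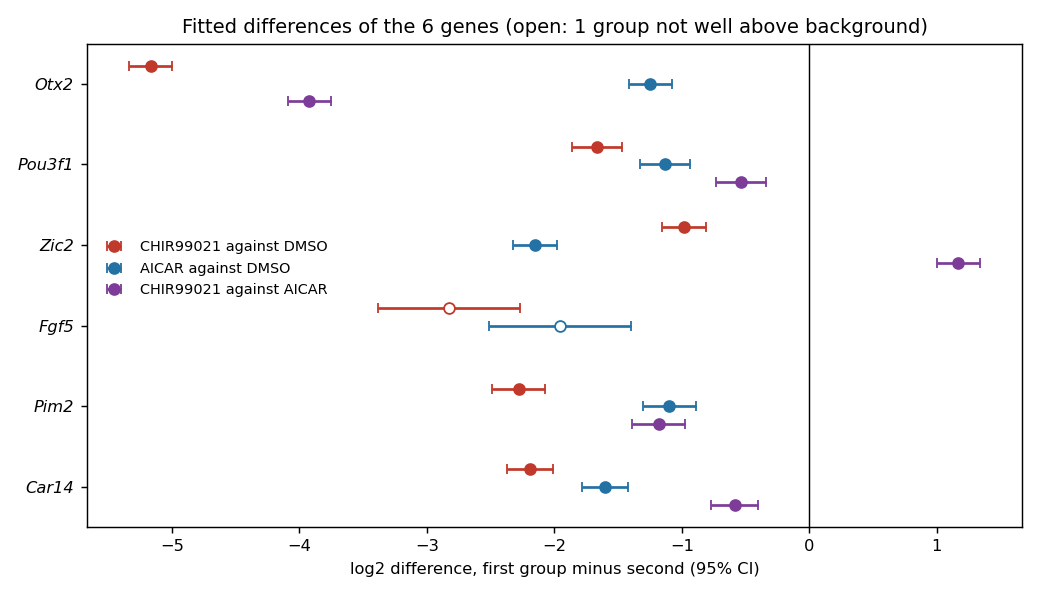
Fitted log2 difference of each gene in the 3 comparisons, first group minus second, with the 95% confidence interval of limma's fit; open points have 1 group not well above background, and Fgf5 has no point between the treatments. Otx2 with CHIR99021 lies at -5.17, far from the other points, and the difference between the treatments is above 0 for Zic2, at 1.17.

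Set side by side, the order DMSO, AICAR, CHIR99021 from high to low held for Otx2, Pou3f1, Pim2 and Car14, and each neighbouring pair in that order differed in the fit. Zic2 ran DMSO, CHIR99021, AICAR, again with both neighbouring pairs apart. In the direct comparison of the treatments, 4 of these 5 members were lower with CHIR99021 and 1 was higher. Over all features, 24.6% were lower and 36.2% were higher in that comparison, and in 26.6% (CHIR99021 lower) and 38.8% (CHIR99021 higher) the groups did not overlap. In none of these 5 did the arrays of DMSO overlap those of a treatment, while 25.8% of all features lay wholly below DMSO with CHIR99021 and 32.8% with AICAR. The members spanned different depths of fall with CHIR99021, from -5.17 to -0.98 on the log2 scale, and a narrower range with AICAR, from -2.15 to -1.10.

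**Figure D3:**
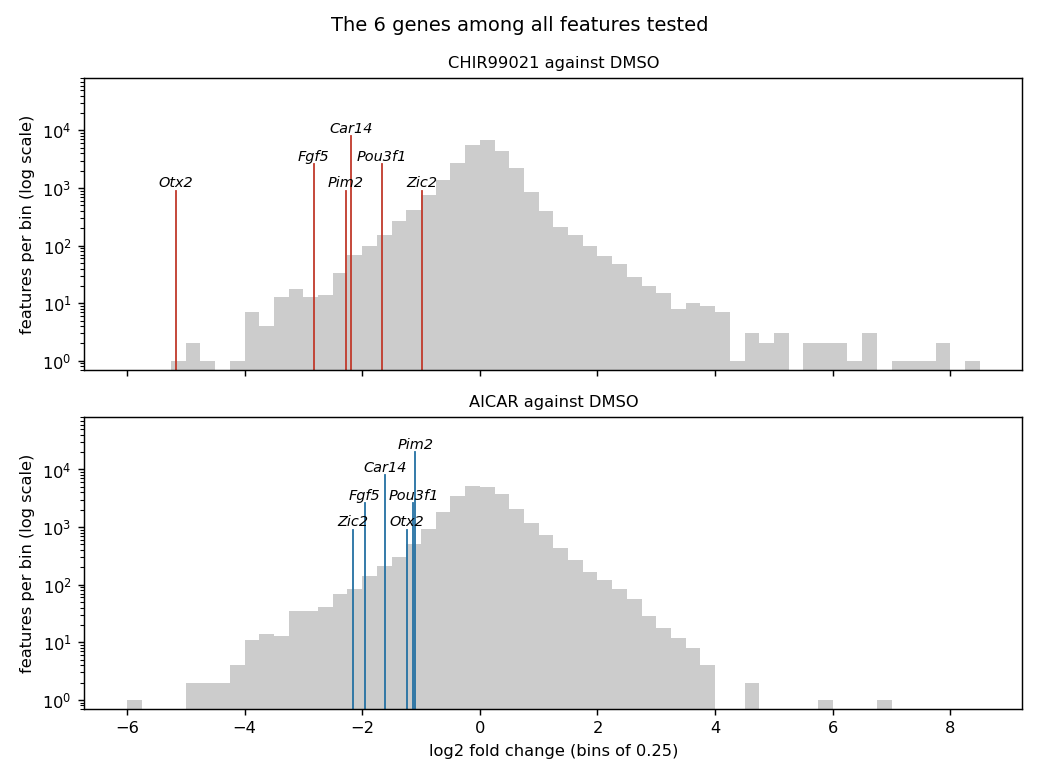
Histograms of the log2 fold changes of all 26864 features tested, in bins of 0.25 with a log-scaled count axis, with coloured lines at the 6 genes. Otx2 stands at the left end with CHIR99021, while with AICAR the 6 genes lie between -2.15 and -1.10, inside the left flank (the Fgf5 line is the fitted value, which has no meaning beyond its bound).

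The relatives of each member were read in the same fit, to show whether a fall was shared within its family. Of 21 other FGF ligands, 15 were tested. With CHIR99021, 5 fell and 4 rose (51% of all features were called in either direction), and with AICAR, 3 fell and 9 rose (60.5% called). Their medians were 0.03 and 0.34 on the log2 scale. Fgf3, counted as rising with both, was well above background on 0 of 3 DMSO arrays and passed the filter through the treated arrays alone. Fgf9 and Fgf22, counted as falling with CHIR99021, were above background on 0 of 3 arrays there. No size is read for these changes, and the calls of Fgf3 carry no weight. Fgf1, a ligand that binds every FGF receptor, fell by 3.03 ± 0.09 with CHIR99021 and by 0.80 ± 0.09 with AICAR. Fgf4, the ligand by which stem cells drive their own ERK signalling, fell by 0.70 ± 0.04 with CHIR99021 but rose by 0.46 ± 0.04 with AICAR. Fgf15, a ligand of the epiblast and gut, likewise fell by 1.56 ± 0.11 and rose by 0.56 ± 0.11. Fgf10, a ligand of limb and lung, rose with both, by 0.62 ± 0.07 and 1.98 ± 0.07. Fgf8, a ligand of the primitive streak, changed by -0.21 ± 0.11 with CHIR99021 (limma, adjusted p = 0.130) and fell by 0.64 ± 0.11 with AICAR.

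Among relatives of Zic2, Zic1 and Zic5 were read. Zic5 fell by 1.02 ± 0.08 with CHIR99021 and by 1.80 ± 0.08 with AICAR, and it was higher with CHIR99021 than with AICAR by 0.78 ± 0.08. Zic5 is the protein-coding gene next to Zic2 on chromosome 14 in the RefSeq table, and both fell farther with AICAR. The brightest probe of Zic1 gave -0.62 ± 0.06 and -1.17 ± 0.06. Its other probe gave 1.54 and 0.98, so no direction can be given for Zic1. Zic4 was not tested.

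Of 14 other POU factors, 9 were tested. With CHIR99021, 4 fell and 2 rose, and with AICAR, 2 fell and 2 rose (medians -0.16 and -0.05). Pou4f3, counted as falling with CHIR99021, was above background on 0 of 3 arrays there. The closest relatives of Pou3f1, namely Pou3f2, Pou3f3 and Pou3f4, were not tested. Pou2f2, a factor best known from B cells, fell by 1.42 ± 0.05 with CHIR99021. Pou5f1 (Oct4), which both naive and primed cells need, changed by 0.18 ± 0.17 with CHIR99021 (limma, adjusted p = 0.419) and by 0.46 ± 0.17 with AICAR (limma, adjusted p = 0.0505). Its value with AICAR passed the test under other scalings, at 0.65 with quantile normalization, 0.59 with spike-in scaling and 0.64 with the series matrix.

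Pim1 and Pim3, the other PIM kinases and known targets of LIF, moved in opposite directions under each compound. Pim1 rose by 0.41 ± 0.08 with CHIR99021 and fell by 0.56 ± 0.08 with AICAR. Pim3 fell by 0.25 ± 0.06 with CHIR99021 and rose by 0.31 ± 0.06 with AICAR. Pim2 itself fell with both.

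Of 15 other carbonic anhydrases, 13 were tested. With CHIR99021, 5 fell and 5 rose of the 12 left without Car4 (median 0.04). With AICAR, 4 fell and 3 rose of 13, where the median of 0.10 is the value of the brightest Car4 probe. The cytosolic enzymes Car2 and Car3 fell with both, Car2 by 0.81 ± 0.07 and 1.31 ± 0.07, and Car3 by 1.25 ± 0.10 and 1.88 ± 0.10. Car9, a membrane enzyme induced by low oxygen, fell by 1.23 ± 0.07 with CHIR99021 and changed by -0.08 ± 0.07 with AICAR (limma, adjusted p = 0.366). Car12, another membrane enzyme, fell by 0.44 ± 0.08 with CHIR99021 and rose by 2.06 ± 0.08 with AICAR. Car4 had probes of opposite sign with CHIR99021, 0.38 and -3.21. With AICAR they gave 0.10 and -2.94, and no direction is given for Car4.

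**Figure D4:**
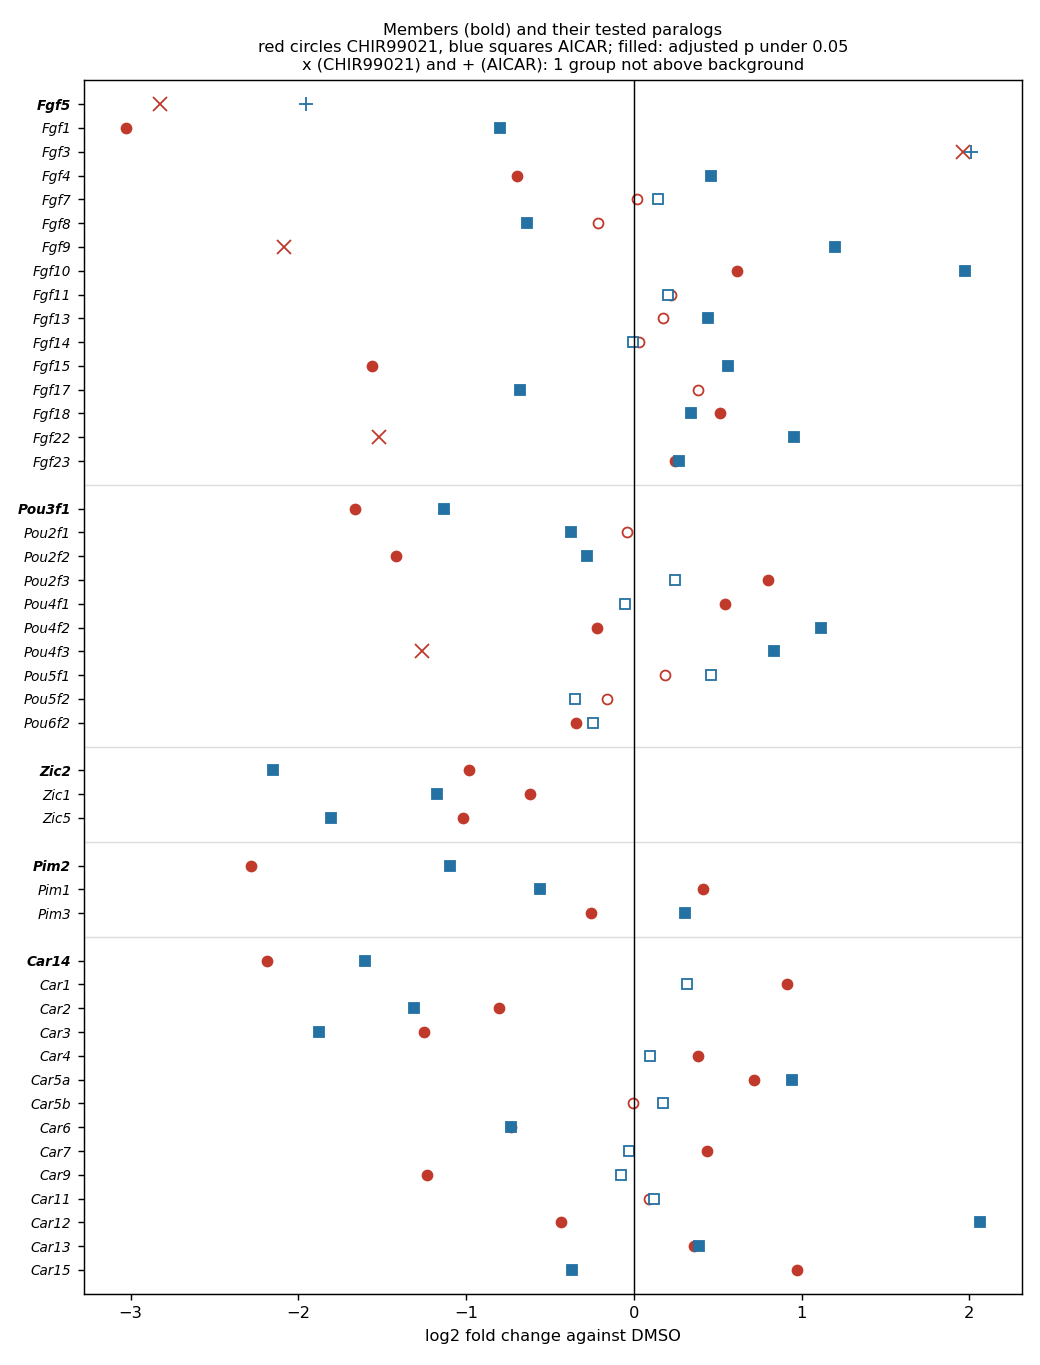
Log2 fold change against DMSO of 5 members (bold) and the tested relatives counted here, with CHIR99021 as circles and AICAR as squares, filled at an adjusted p under 0.05, and with x (CHIR99021) or + (AICAR) where 1 group was not above background so that the fitted value is only the base of a bound. The plotted relatives lie on both sides of 0 in the FGF, POU, PIM and carbonic anhydrase families, and the brightest probes of Zic1 and Zic5 lie below 0.

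Other genes known to mark the primed epiblast were mostly lower as well. Of 21 listed, 20 were tested. With CHIR99021, 13 fell and 3 rose, with a median of -0.75, and with AICAR, 17 fell and 2 rose, with a median of -0.70. Over all features, 20.5% fell with CHIR99021 and 29.6% with AICAR. This list was drawn up with results of these arrays known, and it holds Zic5 and Fgf15 named above. The 3 that rose with CHIR99021 were Cdh2 (1.22), Etv4 (0.43) and Etv5 (0.42). The 2 that rose with AICAR were Cldn6 (0.90) and Fgf15 (0.56). Cldn6 fell by 0.84 with CHIR99021. Sall2, a zinc-finger factor, fell by 1.93 ± 0.06 with CHIR99021 and by 1.48 ± 0.06 with AICAR. Foxd3, a forkhead factor of the passage out of naive pluripotency, fell by 1.38 ± 0.08 and 1.74 ± 0.08. Dnmt3b, a DNA methyltransferase of the epiblast, fell by 0.95 ± 0.05 and 1.91 ± 0.05, and its 3 probes fell with both compounds.

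Some of these genes differed between the compounds. Wnt8a, a Wnt ligand, fell by 3.57 ± 0.07 with AICAR and by 0.27 ± 0.07 with CHIR99021. Lef1, a factor through which beta-catenin acts, fell by 2.45 ± 0.06 with AICAR and changed by -0.14 ± 0.06 with CHIR99021 (limma, adjusted p = 0.0779). The direct differences between CHIR99021 and AICAR were 3.30 ± 0.07 for Wnt8a and 2.31 ± 0.06 for Lef1 (limma, adjusted p = 5.24e-08 and 7.35e-08). The probes of Sox11, a factor of early neural fate, disagreed. The brighter gave -0.04 with CHIR99021 and -0.92 with AICAR, and the other -0.22 and -0.20, so no difference between the compounds is read for Sox11. In the direct comparison, 7 of the 20 were lower with CHIR99021 than with AICAR and 12 were higher.

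Genes of the naive network were read beside the members. All 18 listed were tested. With CHIR99021, 15 rose and 1 fell, with a median of 0.53, while 30.4% of all features rose. The 1 fall was that of Zfp57, at -0.20 (limma, adjusted p = 0.0488), whose other probe gave 0.28, so its direction depends on the probe. With AICAR, 8 rose and 5 fell, with a median of 0.04, while 30.9% of all features rose. Tfcp2l1, a factor of LIF and Wnt self-renewal, rose by 2.59 ± 0.05 with CHIR99021 and by 1.16 ± 0.05 with AICAR. Prdm14, a repressor of FGF signalling and of DNA methyltransferases, rose by 1.16 ± 0.07 and 0.94 ± 0.07. Gbx2, a homeobox target of LIF, rose by 1.29 ± 0.06 with CHIR99021 and fell by 2.35 ± 0.06 with AICAR. Dppa3, a gene of naive cells and the germ line, fell by 1.57 ± 0.08 with AICAR. Nanog changed by 0.12 ± 0.10 with CHIR99021 (limma, adjusted p = 0.368) and rose by 0.29 ± 0.10 with AICAR. The falls of the members thus stood beside rises across most of this list with CHIR99021, and beside changes in both directions with AICAR.

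**Figure D5:**
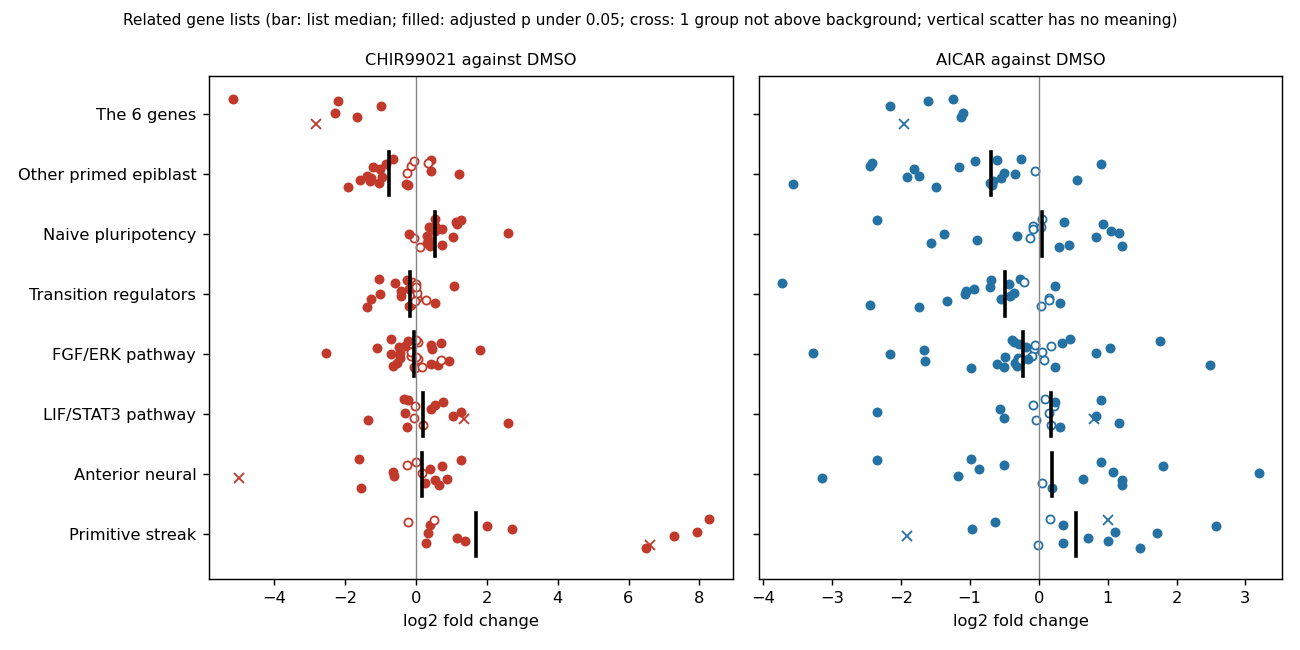
Log2 fold change of each tested gene of 7 related lists and of the 6 genes, with CHIR99021 on the left and AICAR on the right; a bar marks a list's median, filled points have an adjusted p under 0.05 and crosses have 1 group not above background. The other primed epiblast genes centre on -0.75 and -0.70, the naive genes on 0.53 and 0.04 and the primitive streak genes on 1.70 and 0.54.

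The FGF and ERK pathway, which acts ahead of the members, gave falls and rises. Of 30 genes tested, 11 fell and 7 rose with CHIR99021 (median -0.04), and 16 fell and 7 rose with AICAR (median -0.22). Egr1, an immediate early target of ERK, fell by 2.54 ± 0.08 and 3.27 ± 0.08. Fos, another immediate early gene, fell by 0.21 with CHIR99021 but rose by 1.76 with AICAR. Ier3 likewise fell by 1.10 with CHIR99021 and rose by 1.04 with AICAR. Dusp6, a phosphatase of ERK that ERK itself induces, fell by 0.69 ± 0.06 and 2.15 ± 0.06. The feedback inhibitors Spry2 and Spry4 rose with CHIR99021, by 0.95 ± 0.04 and 1.82 ± 0.13, and fell with AICAR, by 1.65 ± 0.04 and 1.66 ± 0.13. The receptor Fgfr3 rose with AICAR under both probes, by 2.48 and 1.39.

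Among 20 regulators of the passage to the primed state, 10 fell and 2 rose with CHIR99021 (median -0.16), and 14 fell and 2 rose with AICAR (median -0.49). Tcf7l1, the TCF factor that represses naive genes, fell by 1.04 ± 0.09 with CHIR99021 and Tcf7 rose by 1.07 ± 0.08. Nodal, a ligand that maintains the epiblast, fell by 1.26 ± 0.06 with CHIR99021 and by 0.54 ± 0.06 with AICAR. Myc fell by 0.59 ± 0.08 and 3.72 ± 0.08. Ctnnb1, which encodes beta-catenin, changed by 0.02 ± 0.05 with CHIR99021 (limma, adjusted p = 0.721) and fell by 0.35 ± 0.05 with AICAR. Of 15 genes of the LIF and STAT3 pathway, 5 fell and 7 rose with CHIR99021 (median 0.20), and 3 fell and 6 rose with AICAR (median 0.17). Klf4, Klf5, Tfcp2l1 and Gbx2 are also in the naive list, Gbx2 is also an anterior neural gene, and Pim1 and Pim3 were read above. Counts of lists that share genes are thus not independent. Osmr, counted as rising with both, was above background on 0 of 3 DMSO arrays and passed the filter through treated arrays alone. Stat3 changed by 0.20 ± 0.08 and 0.17 ± 0.08 (limma, adjusted p = 0.0628 and 0.0863). Junb, an early target of LIF, fell by 1.35 ± 0.09 with CHIR99021, and Klf4 rose by 1.06 ± 0.04 and 0.83 ± 0.04.

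Otx2, Pou3f1 and Zic2 also act in the anterior neural plate, and Otx2 in the anterior streak, so both sets were counted. Of 20 anterior neural genes, 15 were tested. Zic1, whose probes were called in both directions, is left out of the counts. Of the other 14, 4 fell and 7 rose with CHIR99021 (median 0.21). With AICAR, 5 fell and 8 rose (median 0.42). The shares of all features were 20.5% falling and 30.4% rising with CHIR99021, and 29.6% and 30.9% with AICAR. Pax6, a homeobox factor of eye and brain, was at least 13.6-fold lower with CHIR99021, where no array was well above background, and fell by 3.15 ± 0.28 with AICAR. Nes, an intermediate filament of neural progenitors, fell by 1.54 ± 0.06 with CHIR99021. Lhx5, a forebrain factor, rose by 3.19 ± 0.16 with AICAR. Of 16 primitive streak genes, 14 were tested. Evx1 and Msgn1 were above background in 1 group alone and are left out of the counts. Of the other 12, 11 rose and 0 fell with CHIR99021 (median 1.70), while 30.4% of all features rose. By the brightest probes, Fgf8, given above, was the 1 gene with a lower mean, and at an unadjusted p under 0.05 limma likewise called 0 lower. The other tested probe of Fgf8 gave 0.02 with CHIR99021. Tbx6, counted as rising at 0.41, gave -0.30 with its other probe, so its direction depends on the probe. With AICAR, 8 rose and 3 fell (median 0.54). Cdx2, counted as falling, was above background on 0 of 3 AICAR arrays. T, the founding streak factor, rose by 8.27 ± 0.23 with CHIR99021, with 2 of 3 DMSO arrays well above background.

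Axin2 and Sp5, direct targets of beta-catenin, served as a check of the CHIR99021 label. With CHIR99021 the probes of Axin2 rose by 5.12 and 3.83, and Sp5 rose by 7.94 ± 0.07. With AICAR, Sp5 rose by 1.11 ± 0.07, while the probes of Axin2 gave 0.38 and -0.23.

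The array-wide profiles nearest to each member were taken from 16039 genes with a symbol, by the Euclidean distance of their 9 log2 values after subtracting each gene's own DMSO mean. The nearest to Otx2 was Trem2, a receptor of myeloid cells, at a distance of 1.53. Trem2, Slc13a3 and Col8a2, the 3 nearest to Otx2, were above background on 0 of 3 CHIR99021 arrays, so these distances rest in part on values below background and their order is not read. Trem2 was at least 8.30-fold lower with CHIR99021 and fell by 1.99 ± 0.15 with AICAR. The nearest to Pou3f1 were Map7d3 (0.33), Plk3 (0.34) and Slc47a2 (0.38). The nearest to Zic2 were Dido1 (0.31), Slc38a2 (0.33) and Cphx1 (0.37), of which the amino acid transporter Slc38a2 fell by 1.13 ± 0.06 with CHIR99021 and by 2.12 ± 0.06 with AICAR. Dido1 had 4 probes that ranged from -0.85 to 0.17 with CHIR99021. Those nearest to Pim2 were Mybpc2 (0.47), Fzd2 (0.50) and Dusp26 (0.50), and those nearest to Car14 were Izumo2 (0.39), Ccm2l (0.41) and Pkdcc (0.47). Fzd2, a Wnt receptor, fell by 2.15 ± 0.06 and 1.22 ± 0.06, and its other probe by 2.67 and 2.01. No distance is read for Fgf5, whose treated values were below background.

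The labelled cell type was checked against its markers. All 10 embryonic stem cell markers were well above background on all 9 arrays. Their summed signal over the array's 75th percentile ran from 554 to 574 in DMSO, 480 to 504 with CHIR99021 and 542 to 590 with AICAR. Of these 10, 4 fell and 2 rose with CHIR99021 (median -0.06), and 4 fell and 4 rose with AICAR (median 0.17). Fibroblast markers, which feeder cells would bring, summed to 2.70 to 2.87, 2.75 to 2.87 and 3.67 to 4.38, with 7 to 9 of 12 above background and Lum, Postn and Twist2 above it on no array. Of the 9 tested, 5 fell and 3 rose with AICAR (median -0.51), while 29.6% of all features fell and 30.9% rose. The 3 that rose were Pdgfrb (2.32), Thy1 (0.91) and S100a4 (0.48), so the higher AICAR sum is no rise across the list. Dcn, 1 of the falls, was above background on 0 of 3 AICAR arrays. Primitive endoderm markers, with 11 or 12 of 12 above background, summed to 131 to 138 in DMSO, 99.2 to 101 with CHIR99021 and 131 to 137 with AICAR. Of these 12, 5 fell and 5 rose with CHIR99021 (median 0.17), while 20.5% of all features fell and 30.4% rose. Sparc, the brightest (log2 level 6.91 in DMSO and 6.38 with CHIR99021), weighs most in the sum, whose drop is thus no fall across the list. Afp, 1 of the falls, was above background on 0 of 3 CHIR99021 arrays. Trophoblast markers, with 6 to 8 of 10 above background and Plac1 above it on no array, summed to 18.4 to 20.3, 26.6 to 29.0 and 25.2 to 26.1. Of the 7 tested, 0 fell and 4 rose with CHIR99021 (median 0.54), and 3 fell and 4 rose with AICAR (median 0.30). Cdx2, counted above as a streak gene, went from a log2 level of -5.42 in DMSO to 1.85 with CHIR99021. The part of these shifts in the values of the members was not tested. The share of spots well above background was 62.8% to 67.2%. Arrays correlated at 0.995 to 0.997 within groups and 0.973 to 0.983 between them.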

How the data were processed

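Total RNA of 9 samples was hybridised to 1-colour Agilent arrays. The deposited scanner files give intensity per spot on a linear scale, made with Agilent Feature Extraction 10.7.3.1 per the file headers (10.7 in the submitters' processing notes), beside flags for well above background, saturation and outliers, which the authors' software set. The deposited series matrix holds log2 values whose centring was not given in the sources used here. It served as an alternative. Headers name build mm9.

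The processed signal was put on the log2 scale and the array's 75th percentile, over 59305 spots that are not controls, was subtracted. From 136 to 192 outlier spots an array were dropped, and repeat spots of 1 probe were averaged. Of 55681 probes, 27235 were named through RefSeq accessions (GRCm38.p6) and 28446 kept the file's name. A total of 37739 were well above background on at least 3 arrays. Each gene was read by its probe of highest mean, which gave 26864 features, 16089 with a symbol. The 75th percentile of the signal was 567 to 617, and 3 arrays per group limit the precision.

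A joint limma model over the 9 arrays (lmFit and eBayes; limma 3.58.1, R 4.3.3, version 1.17.8 of data.table) gave the comparisons, with Benjamini-Hochberg adjustment per comparison over all features, and a feature rose or fell at an adjusted p under 0.05. Errors are SEs of the fit, and list medians use fitted values. The fit was tested on simulated data. Positions refer to RefSeq windows of GRCm38.p6, read with Python 3.11.15 and pandas 2.3.3. Named genes are the members, tested relatives, up to 4 called genes with the largest change per list and comparison with others that did not pass, the 3 nearest profiles per member, and Axin2 and Sp5. A few genes named in the text for their role, or for a rise in a list that mostly fell, are outside the largest changes of their list. A gene of these lists is not reported here and stands in no list count. The members and lists were chosen with earlier results of these data known. Alternatives changed background correction, scaling, filter, probe choice, replicate block and the arrays used. The normexp alternative took median foreground signals, as the files used here hold no mean signal.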

Additional observations from a re-analysis of the deposited data

How the results depend on the processing

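The direction and call of Otx2, Pou3f1, Zic2, Pim2 and Car14 held in each of 18 alternative settings and every comparison. Across them Otx2 ranged from -5.24 to -4.58 with CHIR99021 and from -1.27 to -1.12 with AICAR, and Zic2 from -1.05 to -0.95 and from -2.22 to -2.02. Fgf5 was -0.34 and -0.39 under normexp, short of its bounds, where the offset of 50 exceeds its signal. Leaving out 1 array at a time gave 11747 to 14027 features called for CHIR99021 against DMSO, 14569 to 16157 for AICAR against DMSO and 14934 to 16039 between the treatments.

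Spike-in scaling, on 8 control probes, moved the split of calls. It gave 4629 higher and 4878 lower for CHIR99021 against DMSO (main setting 8180 and 5516), 9092 and 4559 for AICAR against DMSO (8309 and 7943), and 4250 and 7988 between the treatments (9722 and 6606). It moved the median of all features from 0.03 to 0.16 with AICAR and from 0.10 to -0.09 between the treatments.

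Replicate numbers did not pair the samples: same-numbered arrays correlated in their deviations at -0.06 to 0.09 over 9 pairs, others at -0.13 to 0.11 over 18. The replicate block called 12713, 15460 and 15682 features and changed no call of a member. Slide as a block could not be fitted, since each slide holds 1 group.

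Of 5733 values of other genes read under these settings, 5510 kept direction and call, 53 gained a call, 163 lost one and 7 reversed. When probes of a gene were averaged, Zfp57 with CHIR99021 went to 0.039, Zic1 with CHIR99021 to 0.46, and Car4 to -1.42 with CHIR99021 and -1.42 with AICAR, since their probes differ in sign or size. Between the treatments, Stat3 went to -0.22 with quantile normalization and -0.21 with the series matrix, and Fgf18 to -0.026 with spike-in scaling; the cause was not tested. Signal over background limits Fgf5 to a bound, and no group of 3 was screened for outlying arrays.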
